A study of Homo sapiens with 6 samples.

Results

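The 9 genes described here are JAK1, JAK2, JAK3 and TYK2, which form the Janus kinase family, the transcription factor genes STAT3, STAT5A, STAT5B and STAT6, and EPOR, which encodes the receptor of erythropoietin. They were taken by exact gene name from a table of 35410 genes, and each name stood on 1 row. RNA was measured by MACE-Seq, in which the 3′ ends of polyadenylated transcripts are sequenced, in 6 libraries of SEM. This established human cell line, derived from a proB leukemia, carries the fusion KMT2A::AFF1. The 3 SEM::mock libraries came from cells transfected with the empty vector, and the 3 SEM::EGR3 libraries from cells with an inducible EGR3 transgene, a zinc finger transcription factor. All 6 were harvested 48 h after doxycycline at 1 µg/mL, so the control carries the same inducer. The labels describe the replicates as biological and do not say whether they come from separate transfections or clones. The p-values therefore measure the spread between libraries of these lines.

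Cytokine receptors of this class have no kinase of their own. A ligand brings receptor chains together, the Janus kinases bound to them phosphorylate each other and the receptor, and the STAT factors that dock there are phosphorylated, form dimers and move to the nucleus. EPOR works with JAK2 and the paired factors STAT5A and STAT5B in red cell precursors. In early B-lineage cells the receptor of interleukin 7 signals through JAK1 and JAK3 to the same STAT5 factors, whereas STAT6 is the factor of interleukin 4 and interleukin 13.

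Library depth, as the total over all genes of the table, was 5286115 to 6181388 counts in SEM::mock and 7293092 to 15106018 counts in SEM::EGR3. EGR3 itself was counted 8, 10 and 6 times in the SEM::mock libraries and 9768, 4952 and 5557 times in the SEM::EGR3 libraries, as their labels state. Markers of the proB cell went against the label in SEM::mock. The summed level of 10 B lineage markers was 2.65 to 5.88 CPM (counts scaled to a common depth with TMM normalization) in the libraries labelled SEM::mock and 496.5 to 524.1 CPM in SEM::EGR3. EBF1 had 0 counts and PAX5 1, 1 and 2 counts in SEM::mock. Erythroid markers were abundant in all 6 libraries, with sums of 4097 to 4287 CPM and 4037 to 4156 CPM, although HBB and AHSP were at or near 0. Myeloid markers summed to 277 to 287 CPM in SEM::mock against 93.7 to 95.1 CPM in SEM::EGR3, and epithelial markers to 872 to 914 CPM against 430.3 to 462.4 CPM. Fibroblast markers summed to 7.07 to 10.4 CPM against 65.9 to 66.8 CPM, and megakaryocyte markers to 11.2 to 12.2 CPM against 12.6 to 14.4 CPM. The 8 tested B lineage markers were higher and the 4 tested epithelial markers lower. Of 3 tested myeloid markers 1 was higher and 2 were lower, and of 2 megakaryocyte markers 1 was higher (ITGA2B) and 1 lower (GP1BA). The 2 tested fibroblast markers were higher. DCN (4, 8 and 2 counts against 3, 2 and 3) and LUM (4, 8 and 3 against 2, 0 and 1) were not tested. Among all tested genes 36.5% were higher and 32% lower. The sums of the T cell markers overlapped, at 87.1 to 99.4 CPM and 82.1 to 90.3 CPM, but of the 5 tested 2 were higher and 3 lower, with log2 fold changes from -4.23 to 5.94. The erythroid sums overlapped as well, whereas the B lineage, myeloid, epithelial, fibroblast and megakaryocyte sums separate the same libraries as EGR3 does. Therefore for every gene below a difference between the lines and an effect of the transgene cannot be told apart. Without the libraries labelled SEM::mock no comparison remains.

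Of the 9 genes, 2 were upregulated in SEM::EGR3 (JAK3 and STAT6), 6 were downregulated (JAK1, JAK2, STAT3, STAT5A, STAT5B and EPOR), and TYK2 did not pass the test. Calls rest on the quasi-likelihood test of edgeR at an adjusted p-value of 0.05 (Benjamini-Hochberg, 15465 genes). At that threshold 36.5% of all tested genes were higher and 32% were lower, with a median log2 fold change of 0.03 over all tested genes. The libraries of both lines did not overlap for 8 of the 9 genes, which also held for 70.1% of all tested genes. All 9 passed the filter on low counts, JAK3 only through its counts in SEM::EGR3.

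**Figure D1:**
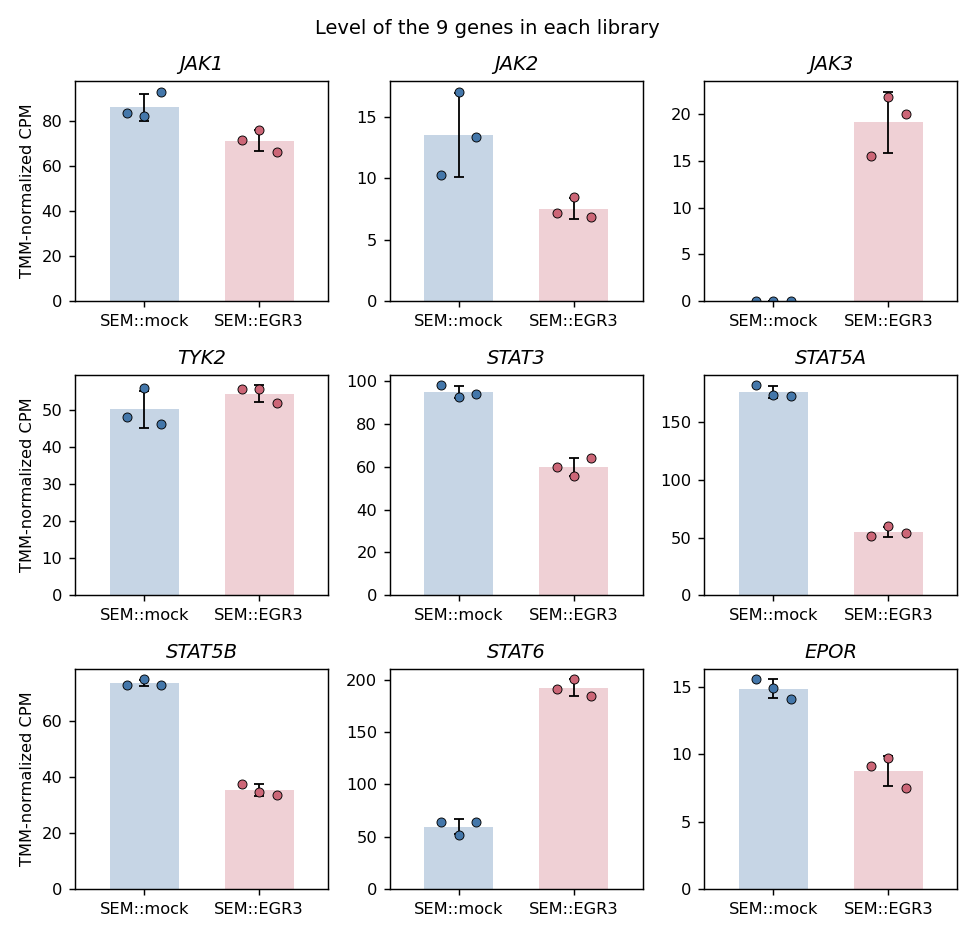
TMM-normalized CPM of each of the 9 genes (vertical axis, from 0, with a scale of its own in each panel) in the 3 SEM::mock (blue) and the 3 SEM::EGR3 (red) libraries. Points are libraries, bars are means and error bars are SD (n = 3). JAK3 sits at 0 in SEM::mock, STAT6 averages 59.5 and 192 CPM, STAT5A averages 176 and 55.0 CPM, and the points of TYK2 overlap.

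EPOR (ENSG00000187266, chr19:11377205-11384342, minus strand, GRCh38) encodes the receptor that keeps red cell precursors alive and dividing. Its counts were 88, 89 and 72 in SEM::mock and 141, 72 and 68 in SEM::EGR3, which correspond to 15.6, 14.9 and 14.1 CPM against 9.10, 9.70 and 7.52 CPM. Every SEM::mock library lay above every SEM::EGR3 library once depth was taken into account. The mean fell from 14.9 ± 0.717 CPM to 8.77 ± 1.13 CPM (SD, n = 3), or 59.0% of the SEM::mock mean. The log2 fold change was -0.76 (SE 0.137, adjusted p = 2.81e-05, edgeR quasi-likelihood test). In a bulk sample, fewer cells that express a gene and less RNA per cell cannot be told apart. Of the 12 erythroid markers, 10 were tested, of which 7 fell and 3 rose, with a median log2 fold change of -1.06. Among all tested genes 36.5% were higher and 32% lower. The 3 that rose were HBA1 (515 to 1497 CPM), HBA2 (213 to 1080 CPM) and SLC4A1 (0.363 to 2.43 CPM). SLC4A1 had 3, 1 and 2 counts in SEM::mock and passed the filter on low counts only through SEM::EGR3. GATA1, a master factor of red cell development, was among the 7 that fell, by 0.23 on the log2 scale. The part of the erythroid markers in the EPOR result was not tested. The gene of the ligand, EPO, was counted 0, 1 and 0 times in SEM::mock and 3, 4 and 0 times in SEM::EGR3, too few to be tested.

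The EPOR promoter is known for a site bound by GATA factors. Promoters were taken from RefSeq (GRCh38.p14), as the 250 bases upstream of each start, and searched on both strands for AGATAA or TGATAA. The only match in the EPOR window lay 78 to 73 bases upstream of the start and is shown with its flanks, with the match in capitals. The motif was present in 14.6% of the 35116 promoters searched, so a match alone is frequent.
EPOR, chr19:11384377-11384402, minus strand: cgccaggcacTTATCTctacccaggc

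The genes whose levels over the 6 libraries were most like those of EPOR were looked for among 13862 candidates, by the root mean square difference of log2 CPM centred over the libraries. The nearest were XPA (0.0385), a DNA damage recognition factor, FLVCR1 (0.0485), a transporter needed by red cell precursors, and SALL2 (0.0504), a zinc finger factor. XPA was measured at 33.8 CPM and 20.2 CPM in the lines, FLVCR1 at 36.9 and 23.3 CPM, and SALL2 at 25.6 and 14.6 CPM. Their log2 fold changes were -0.75, -0.66 and -0.80, close to that of EPOR by construction.

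Among the kinases JAK2, which binds EPOR and the growth hormone receptor, fell to 55.5% of its SEM::mock mean. JAK2 (ENSG00000096968, chr9:4984390-5128183, plus strand) was counted 58, 102 and 68 times in SEM::mock and 112, 63 and 62 times in SEM::EGR3, that is 10.2, 17.1 and 13.3 CPM against 7.22, 8.49 and 6.85 CPM. The SEM::mock libraries were spread widely, with replicate 2 the highest and replicate 1 the lowest, and no SEM::EGR3 library reached the lowest of them. The means were 13.6 ± 3.42 CPM and 7.52 ± 0.856 CPM (SD, n = 3). The coefficient of variation in SEM::mock was 25.3%, the largest of the 8 genes with counts in both lines. The log2 fold change was -0.87 (SE 0.166, adjusted p = 5.77e-05, edgeR quasi-likelihood test).

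JAK1 (ENSG00000162434, chr1:64833229-64966504, minus strand) serves the interferon receptors and the receptors that share the common gamma chain or gp130, and it changed least among the 8 that passed the test. Its counts were 472, 490 and 475 in SEM::mock and 1110, 564 and 601 in SEM::EGR3, or 83.4, 82.1 and 93.2 CPM against 71.6, 76.0 and 66.4 CPM. The groups did not overlap, but the nearest libraries were 82.1 and 76.0 CPM. The mean fell from 86.2 ± 6.05 to 71.3 ± 4.78 CPM (SD, n = 3), a log2 fold change of -0.27 (SE 0.069, adjusted p = 0.00116, edgeR quasi-likelihood test). In absolute size this change exceeded only 33.2% of all tested genes. The 3′ end of JAK1 overlaps that of RAVER2 on the opposite strand by 4 bases, and RAVER2 rose from 10.7 to 21.5 CPM.

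TYK2 (ENSG00000105397, chr19:10350529-10380676, minus strand), the partner of JAK1 at the type I interferon receptor and of JAK2 at the interleukin 12 receptor, was not called. Its counts of 273, 334 and 236 in SEM::mock and 863, 414 and 469 in SEM::EGR3 gave 48.2, 55.9 and 46.3 CPM against 55.7, 55.8 and 51.8 CPM. The highest SEM::mock library lay above all SEM::EGR3 libraries. The means were 50.2 ± 5.11 and 54.4 ± 2.24 CPM (SD, n = 3), and the log2 fold change was 0.12 (SE 0.077, adjusted p = 0.19, edgeR quasi-likelihood test). The call depended on 1 library and on the scaling. Without SEM::mock replicate 2 the log2 fold change was 0.19 with an adjusted p of 0.0497, and without normalization factors it was 0.19 with an adjusted p of 0.03.

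JAK3 (ENSG00000105639, chr19:17824780-17848071, minus strand), the kinase of the common gamma chain and largely a lymphoid gene, was the only one of the 9 that was absent from the counts of a line. All 3 SEM::mock libraries stood at 0 counts, against 240, 162 and 181 in SEM::EGR3, which gave 15.5, 21.8 and 20 CPM. The mean in SEM::EGR3 was 19.1 ± 3.27 CPM (SD, n = 3). Set against the level that 3 counts per SEM::mock library would give, JAK3 was at least 35.4-fold higher, and this floor covers counting error only. Because JAK3 entered the test only through SEM::EGR3, no p-value is given for it. Most markers of the B lineage moved with it. Of the 10 on the list 7 had at most 3 counts in every SEM::mock library, like JAK3, and the summed level was 2.65 to 5.88 CPM against 496.5 to 524.1 CPM. Among these 7, DNTT had 2, 0 and 1 counts in SEM::EGR3 and VPREB1 8, 6 and 5, too few to be tested. The part of the B lineage markers in the JAK3 result was not tested. The genes with the most similar levels were POU3F3 (root mean square difference 0.0663), a POU domain factor, CD22 (0.101), an inhibitory B cell receptor of the marker list, and RASAL3 (0.106), a Ras GTPase-activating protein. POU3F3 and RASAL3 also had 0 counts in all SEM::mock libraries, and CD22 had 2, 1 and 1.

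The stretch upstream of JAK3 is shown because the gene was at 0 counts in 1 line only. It is the part of the RefSeq window that lies outside every exon of GENCODE release 29, and it runs for 161 bases with a GC content of 64.6%. No match to the EGR, GATA, GAS or EBF motif, whose letters are given with the STAT5 genes, was present in the window, which says only that these letters are not there.
JAK3, chr19:17848072-17848232, minus strand: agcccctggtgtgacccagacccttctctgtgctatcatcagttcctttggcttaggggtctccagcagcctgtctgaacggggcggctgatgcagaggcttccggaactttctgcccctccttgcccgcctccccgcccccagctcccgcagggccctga

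Because MACE-Seq counts transcript ends, the 4 kinases can be summed per library, as shares of counts and not of protein. The sum was similar in both lines, with 150 ± 7.05 CPM in SEM::mock and 152 ± 8.72 CPM in SEM::EGR3 (SD, n = 3). The shares within it differed. JAK1 made up 57.6% ± 4.17 of the kinase counts in SEM::mock and 46.8% ± 0.987 in SEM::EGR3, and JAK3 made up 0% and 12.5% ± 1.91. TYK2 stood at 33.5% ± 2.93 and 35.8% ± 1.35. The share of JAK2 was 7.22%, 11.02% and 8.73% in the SEM::mock libraries and 4.82%, 5.24% and 4.72% in the SEM::EGR3 libraries. The groups did not overlap, and the mean share was 4.06 percentage points lower in SEM::EGR3 (8.99% ± 1.91 against 4.93% ± 0.274). A two-sided exact permutation test gave p = 0.1, the smallest value that this test can give for 3 libraries against 3, so it cannot reach 0.05 here.

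**Figure D2:**
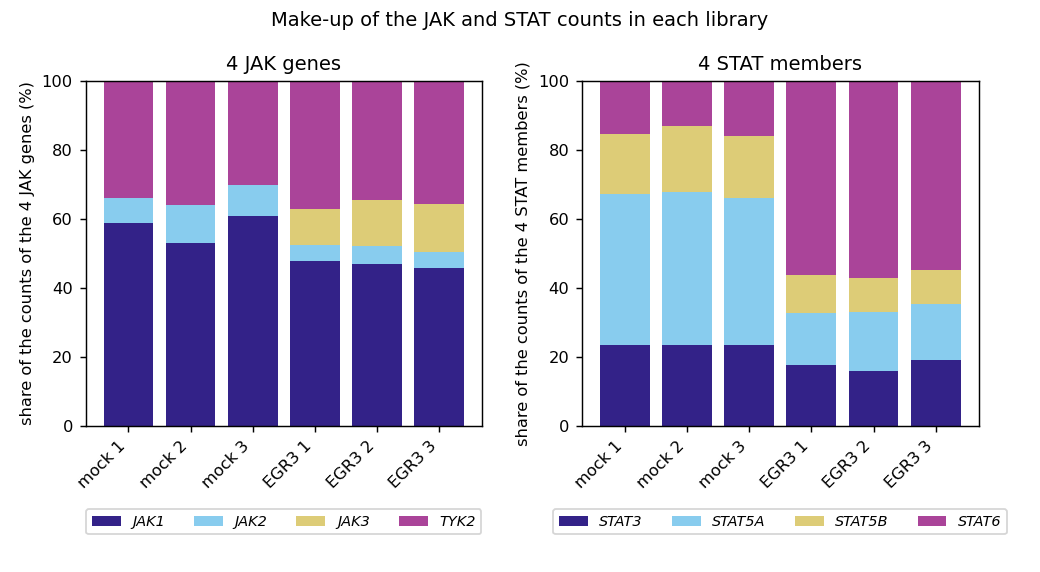
Share of counts (%, vertical axis) of each gene among the 4 JAK genes (left) and among the 4 STAT genes described here (right), 1 stacked bar per library. JAK3 appears in the SEM::EGR3 bars only, and STAT6 averages 14.7% and 56.1% of the STAT counts in the lines, against 43.6% and 16.1% for STAT5A.

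STAT5A (ENSG00000126561, chr17:42287547-42311943, plus strand) fell most among the 9 genes. Its protein is the factor that EPOR and interleukin 7 signals share with the near-identical STAT5B. The counts were 1031, 1040 and 880 in SEM::mock and 793, 443 and 490 in SEM::EGR3. After normalization these were 182, 174 and 173 CPM against 51.2, 59.7 and 54.2 CPM, with the replicates of each line close together and the lines far apart. The mean fell from 176 ± 5.15 to 55.0 ± 4.32 CPM (SD, n = 3), to 31.2% of the SEM::mock mean. The log2 fold change was -1.69 (SE 0.064, adjusted p = 1.93e-17, edgeR quasi-likelihood test), larger in size than that of 86.7% of all tested genes.

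STAT5B (ENSG00000173757, chr17:42199168-42276707, minus strand) fell less, to 47.9%. Counts of 411, 447 and 372 in SEM::mock and of 582, 256 and 304 in SEM::EGR3 gave 72.6, 74.9 and 73.0 CPM against 37.5, 34.5 and 33.6 CPM. The replicates were again tight, with means of 73.5 ± 1.21 and 35.2 ± 2.07 CPM (SD, n = 3). The log2 fold change was -1.05 (SE 0.071, adjusted p = 2.16e-12, edgeR quasi-likelihood test). STAT5A accounted for 71.5%, 69.9% and 70.3% of the counts of the pair in SEM::mock and for 57.7%, 63.4% and 61.7% in SEM::EGR3. The means of 70.6% ± 0.818 and 60.9% ± 2.93 differed by -9.65 percentage points, without overlap between the lines (two-sided exact permutation test, p = 0.1, the smallest possible). Both genes come from a duplication and their coding sequences are alike, which could mix their reads. In the last 500 bases of the longest coding transcript, where MACE reads fall, none of the 451 overlapping 50-base words of either gene was found in a transcript of another gene, with a count of 0 for each of the 9 genes. Words were compared in the direction of the transcripts only. Overlap with a gene on the opposite strand, such as that of STAT6 with NAB2, was therefore not covered.

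The upstream stretches of STAT5A and STAT5B are shown because the genes lie near each other and fell together. Windows were searched on both strands for the EGR motif GCGNGGGCG, the GATA motif given with EPOR, the GAS motif of STAT factors TTCNNNGAA and the EBF motif, which is TCCC and GGGA with any 2 bases between them. In all 35116 promoters their shares were 8.41% for EGR, 14.6% for GATA, 6.57% for GAS and 1.06% for EBF. The 9 genes had 16 annotated start sites, of which 1 had an EGR match, 2 a GATA match, 1 an EBF match and 0 a GAS match. The EGR match was in STAT5B, 31 to 23 bases upstream of its start, and is in capitals in its sequence, which is the 221 bases of the window outside any GENCODE exon and has a GC content of 83.3%. Each match lay in a window of its own. The sequence of the start site of STAT5A that is listed second holds no match in its 250 bases (GC content 65.6%). The start site of STAT5A listed as number 3 has the EBF match, in capitals, 223 to 214 bases upstream.
STAT5B, chr17:42276407-42276627, minus strand: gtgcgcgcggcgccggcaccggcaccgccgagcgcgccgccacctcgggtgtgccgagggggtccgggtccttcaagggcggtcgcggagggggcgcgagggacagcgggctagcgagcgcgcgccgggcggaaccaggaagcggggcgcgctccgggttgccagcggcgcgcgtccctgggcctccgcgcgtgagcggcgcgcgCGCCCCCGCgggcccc
STAT5A, chr17:42287297-42287546, plus strand: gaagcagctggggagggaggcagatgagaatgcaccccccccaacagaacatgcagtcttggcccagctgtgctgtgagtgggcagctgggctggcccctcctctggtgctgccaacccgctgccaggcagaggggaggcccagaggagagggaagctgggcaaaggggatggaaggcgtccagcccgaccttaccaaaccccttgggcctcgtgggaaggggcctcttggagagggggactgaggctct
STAT5A, start site 3, chr17:42288265-42288294, plus strand: ctgctgggacTCCCGGGGGAccccgccgtc

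STAT3 (ENSG00000168610, chr17:42313324-42388568, minus strand), the factor of interleukin 6 and other gp130 cytokines, lies 1.38 kb from STAT5A. Its counts of 555, 553 and 479 in SEM::mock and 932, 415 and 582 in SEM::EGR3 gave 98.1, 92.6 and 93.9 CPM against 60.1, 55.9 and 64.3 CPM. No SEM::EGR3 library came near the SEM::mock range. The mean fell from 94.9 ± 2.84 to 60.1 ± 4.21 CPM (SD, n = 3), with a log2 fold change of -0.66 (SE 0.066, adjusted p = 3.69e-09, edgeR quasi-likelihood test).

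STAT6 (ENSG00000166888, chr12:57095408-57132139, minus strand) moved in the other direction and was 3.23-fold higher in SEM::EGR3. The counts were 359, 306 and 325 in SEM::mock and 2966, 1488 and 1667 in SEM::EGR3, or 63.4, 51.3 and 63.7 CPM against 191, 200.4 and 184 CPM. The 3 libraries of each line were close together, and the lowest SEM::EGR3 value was well above the highest SEM::mock value. The mean rose from 59.5 ± 7.12 to 192 ± 8.12 CPM (SD, n = 3), and the log2 fold change was 1.69 (SE 0.071, adjusted p = 1.67e-16, edgeR quasi-likelihood test). The 3′ end of STAT6 overlaps the 3′ end of NAB2, a corepressor of EGR factors on the opposite strand, by 69 bases. For NAB2 240, 264 and 227 counts stood against 2196, 1024 and 1231 in SEM::EGR3, with a log2 fold change of 1.67. Strand use in counting is not given in the sources used here, so reads of the 2 ends could have been assigned to either gene, and the part of NAB2 in the STAT6 result was not tested. The only motif match in the STAT6 window was a GATA match, 166 to 161 bases upstream of the start, shown here in capitals with its flanks.
STAT6, chr12:57110440-57110465, minus strand: ataggggttgAGATAAgcgagtttag

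The 4 STAT genes together summed to 404 ± 11.7 CPM in SEM::mock and 342 ± 7.34 CPM in SEM::EGR3 (SD, n = 3). STAT6 held 14.7% ± 1.46 of these counts in the former and 56.1% ± 1.21 in the latter, and STAT5A 43.6% ± 0.773 and 16.1% ± 0.994. STAT3 and STAT5B went from 23.5% ± 0.154 to 17.6% ± 1.59 and from 18.2% ± 0.809 to 10.3% ± 0.653. STAT2, a factor of type I interferon signaling, was not called and stood at 39.5 ± 4.85 and 35.2 ± 4.36 CPM (log2 fold change -0.19, SE 0.099). Without SEM::mock replicate 2 or SEM::EGR3 replicate 2 STAT2 passed as lower, with log2 fold changes of -0.26 and -0.25. STAT4, the interleukin 12 factor, had 2, 0 and 0 counts against 5, 1 and 4 and was not tested.

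**Figure D3:**
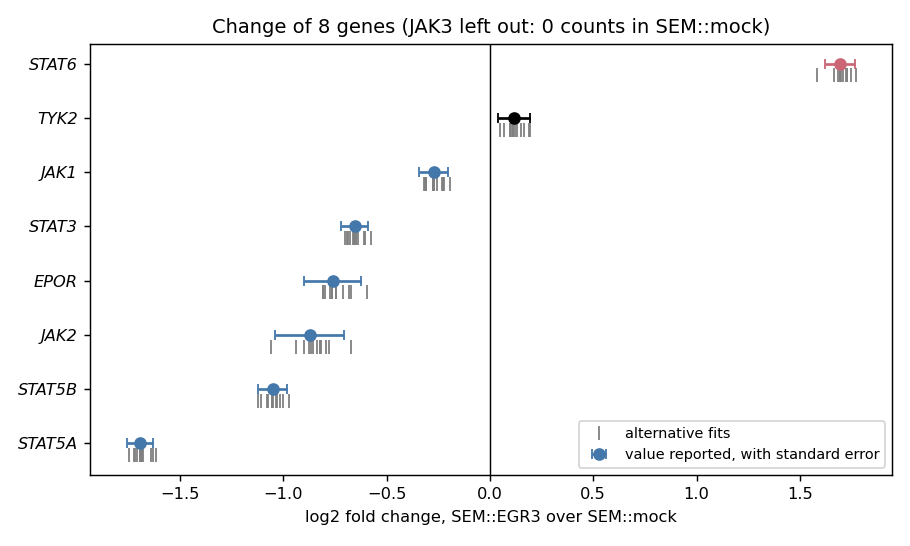
Log2 fold change of SEM::EGR3 over SEM::mock (horizontal axis) for 8 of the 9 genes, as reported, with the standard error as bar, and below each point the values of the alternative fits as ticks. JAK3 is left out because it had 0 counts in SEM::mock. STAT6 stays between 1.58 and 1.77, STAT5A between -1.75 and -1.62, and TYK2 stays near 0, between 0.05 and 0.19.

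The neighbours of each gene, taken as the 3 nearest tested protein-coding genes on either side, place these values in their loci. Each count of neighbours stands beside the shares over all tested genes, of which 32% fell and 36.5% rose. STAT5B, STAT5A and STAT3 follow each other on chromosome 17, and each had 5 of its 6 neighbours lower in SEM::EGR3, the other STAT genes of the locus included. Beyond the STAT genes, CAVIN1, a coat protein of caveolae, fell by 1.52 and ATP6V0A1, a subunit of the vacuolar proton pump, fell by 0.82 on the log2 scale. GHDC, next to STAT5B on its far side, was not called (log2 fold change 0.05, SE 0.098). The neighbour sets of STAT5B, STAT5A and STAT3 overlap, with CAVIN1 and GHDC in each, so their tallies are not separate observations. Around STAT6 all 6 neighbours were higher, from the mitochondrial serine enzyme gene SHMT2 (log2 fold change 0.82) to the neurexin ligand gene NXPH4 (6.32), with NAB2, the nuclear envelope gene NEMP1 (1.35), the neurokinin gene TAC3 (1.22) and the endocytic receptor gene LRP1 (1.23) between them in size. NXPH4 averaged 1.13 CPM in SEM::mock and passed the filter on low counts only through SEM::EGR3. LRP1 was also low in SEM::mock, with 15, 8 and 9 counts.

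The other loci were mixed. JAK1 had 4 higher and 2 lower neighbours, among them the glycolysis-linked gene PGM1 at 0 counts in SEM::mock and 18.4 CPM in SEM::EGR3. JAK2 had 4 higher, 1 lower and 1 uncalled neighbour, with the adenylate kinase gene AK3 also at 0 in SEM::mock and at 22.2 CPM in SEM::EGR3. JAK3 had 4 higher and 1 lower, the largest being the synaptic gene UNC13A with a log2 fold change of 1.67. UNC13A averaged 0.727 CPM in SEM::mock and passed the filter on low counts only through SEM::EGR3. TYK2 had 0 higher and 3 lower neighbours, ICAM3 (-1.47), PDE4A (-1.36) and the kinase chaperone gene CDC37 (-0.49). EPOR had 1 higher and 2 lower, with PLPPR2 at -2.14, PRKCSH at -0.48 and ECSIT at 0.66.

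**Figure D4:**
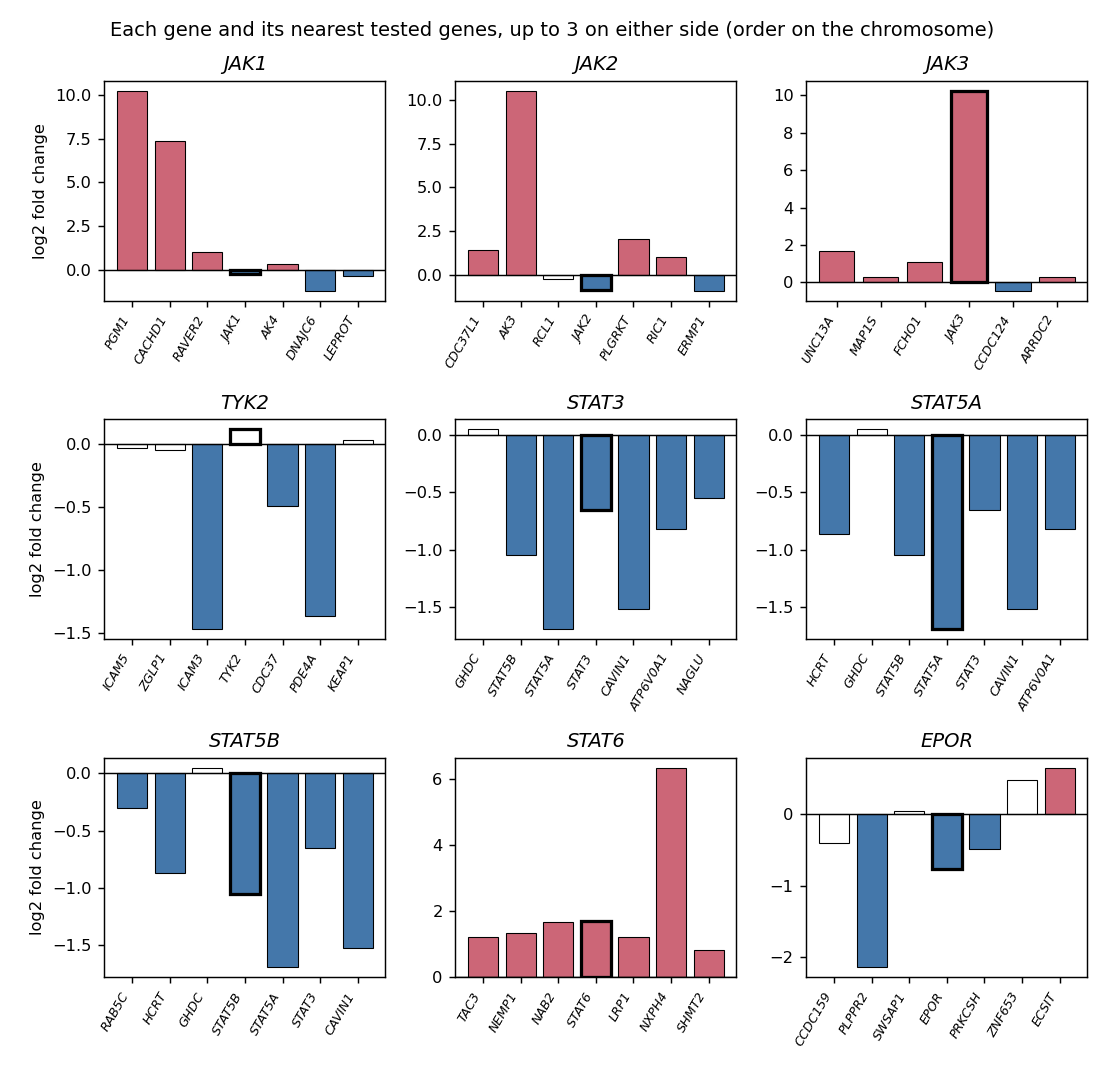
Fitted log2 fold change (vertical axis, own scale per panel) of each gene (thick outline) and its 3 nearest tested protein-coding genes on either side, in chromosome order, with 1 uncalled neighbour of JAK3 left out. Red bars passed the test as higher in SEM::EGR3, blue bars as lower, and white bars were not called. Bars of JAK3, PGM1, CACHD1 and AK3 rest on 0 counts in SEM::mock and show a direction, not a size. STAT6 sits among 6 higher genes and STAT3, STAT5A and STAT5B among lower ones.

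The receptors that use these kinases moved in both directions. Over all tested genes 36.5% were higher and 32% lower, with a median log2 fold change of 0.03. Of 39 listed receptor genes 23 were tested, of which 9 were higher, 11 lower and 3 not called (median log2 fold change -0.26). Where 10 counts were required in each library, 4 were higher and 10 lower, since IL12RB1, IL21R, IL7R, IL2RB and CSF2RB were not tested and the call of IFNAR2 was lost. In 9 of the 39 no library had more than 3 counts. By the naming rule the largest increases were those of IL12RB1, IL21R and IL7R, which encode chains for interleukins 12, 21 and 7. IL12RB1 had 0 counts in SEM::mock and 125, 59 and 78 in SEM::EGR3, at least 15.2-fold above 3 counts per library. IL21R had 1, 0 and 0 counts against 101, 45 and 44, and IL7R 1, 0 and 0 counts against 64, 21 and 24. All 3 had at most 1 count in a library of the line in which JAK3 was at 0. The largest decreases were those of IL4R (24.4 ± 4.16 to 6.49 ± 0.714 CPM, log2 fold change -1.91), the leptin receptor gene LEPR (90.7 ± 3.86 to 26.9 ± 1.84 CPM, -1.74) and IL15RA (13.1 ± 1.25 to 4.43 ± 0.969 CPM, -1.62).

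Grouped by the chain they share, a grouping made after the values were seen, the receptors of the common gamma chain, which carries JAK3, had 4 higher and 2 lower of 6 tested. Of the 4, IL2RB, IL7R and IL21R had too few counts in SEM::mock to be tested where 10 counts were required in each library. That leaves 1 higher (IL2RG) and 2 lower. All tested genes had shares of 36.5% higher and 32% lower, and the groups are small. The shared chain gene IL2RG rose from 12.9 ± 1.77 to 51.2 ± 6.06 CPM, with 62, 86 and 68 counts against 895, 372 and 414, and IL2RB from 1.20 ± 0.991 to 7.02 ± 0.651 CPM. IL4R, whose product pairs with the gamma chain and passes its signal to STAT6, was 1 of the 2 that fell, with IL15RA, while STAT6 rose. The gp130 group, which signals to STAT3, had 2 higher, 3 lower and 1 uncalled of 6 tested. The shared gp130 chain gene IL6ST fell from 49.8 ± 0.130 to 24.3 ± 1.13 CPM, and LIFR and OSMR fell by 0.63 and 0.93 on the log2 scale, whereas IL11RA and IL27RA rose by 1.13 and 0.43. Of 4 interferon receptor genes tested 3 were lower, among them IFNGR1 (-0.95), and IFNAR1 was higher (0.24). The call of IFNAR1 was lost without SEM::mock replicate 3 (0.16), and that of IFNAR2 (-0.24) with the replicate block (-0.23), with DESeq2 and without most single libraries. The common beta chain gene CSF2RB, of the receptors for interleukin 3 and GM-CSF, rose from 1.15 ± 0.366 to 8.74 ± 0.832 CPM.

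Few cytokine genes had enough counts. Of 32 listed 27 were in the table and 5 were tested, of which 2 fell and 3 were not called (median log2 fold change -0.38). Among all tested genes 32% were lower. IL11 entered the test and was called higher without any 1 of the SEM::mock libraries or without SEM::EGR3 replicate 1. IL6, whose signal runs through gp130 and STAT3, was counted 44, 40 and 40 times in SEM::mock and 29, 9 and 13 times in SEM::EGR3, a log2 fold change of -2.21. CTF1, another gp130 ligand, fell by 0.97. IL2, IL4, IL9, IFNG and GH1 were not analysed here. Erythropoietin, thrombopoietin and interleukin 7 genes had averages of at most 0.244 CPM in either line.

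Among 12 phosphatases, PIAS proteins and ubiquitin ligases that restrain this signaling, 5 were higher, 3 lower and 4 not called (median 0.035). The shares over all tested genes were 36.5% higher and 32% lower. PTPN6 encodes the SHP-1 phosphatase, which docks on EPOR and inactivates JAK2, and it went from 7, 7 and 1 counts to 2038, 1009 and 1187. Its mean rose from 0.868 ± 0.583 to 133 ± 2.66 CPM, a fitted log2 fold change of 7.19. PTPN6 passed the filter on low counts only through SEM::EGR3, so no p-value is given for it. It was not tested where 10 counts were required in each library. PTPN2, a nuclear phosphatase of JAK1 and STAT factors, rose by a log2 fold change of 0.85 and the SUMO ligase gene PIAS2 by 0.23. The number of higher genes was 3 without SEM::mock replicate 1, where CBL and PIAS2 lost their calls, and without replicate 3 or with DESeq2, where CBL and PIAS1 did. Of the 3 lower genes, PTPRC (log2 fold change -0.535) overlapped between the lines. Its call was lost in most alternatives, and with DESeq2 the lower genes numbered 2. PIAS3, an inhibitor of STAT3, fell from 10.8 ± 1.24 to 3.44 ± 0.354 CPM, and PTPN1, which acts on JAK2 and TYK2, fell by 0.59. SH2B3, the adaptor LNK that dampens EPOR signals, was not called (55.8 ± 3.41 and 50.5 ± 2.18 CPM), but passed as lower without SEM::mock replicate 3 (-0.20).

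The SOCS genes are both outputs and brakes of the pathway. Of the 8 genes 1 was higher, 3 lower and 4 not called (median -0.005), beside 36.5% higher and 32% lower among all tested genes. SOCS3 fell from 6.88 ± 0.185 to 1.93 ± 0.184 CPM (log2 fold change -1.80), SOCS2 from 173 ± 8.52 to 68.1 ± 3.53 CPM (-1.34) and SOCS1 from 83.9 ± 2.56 to 47.8 ± 0.853 CPM (-0.81). SOCS4 was higher by 0.26, a call that was lost with DESeq2, after thinning, and without SEM::mock replicate 2 (0.18) or SEM::EGR3 replicate 1 (0.21). Without SEM::mock replicate 2 SOCS5 was called instead (0.42). CISH, a classical STAT5 target, was not called although its libraries did not overlap (103 ± 1.85 and 108 ± 1.91 CPM).

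Of 11 genes listed as outputs of STAT5 10 were tested, of which 3 were higher, 6 lower and 1 not called (median -0.57). All tested genes had shares of 36.5% higher and 32% lower. The largest decreases on the list were those of SOCS2, the kinase gene PIM2 (-0.86) and the growth regulator MYC (-0.79). MYC went from 171.5 ± 8.74 to 99.4 ± 5.04 CPM. BCL6, a repressor that STAT5 is known to hold down, rose from 1.42 ± 0.249 to 5.98 ± 1.02 CPM, PIM3 from 75.1 ± 2.89 to 184 ± 9.59 CPM, and the survival gene BCL2L1 from 269 ± 10.6 to 359 ± 15.9 CPM. BCL6 had 8, 10 and 6 counts in SEM::mock, too few for a test where 10 counts were required in each library. That setting left 2 higher genes on the list. Protein and phosphorylation were not measured, so these levels do not give the activity of the factors.

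The adaptors and chaperones were divided, with 6 higher, 5 lower and 5 not called of 16 (median -0.086). Among all tested genes 36.5% were higher and 32% lower. SH2B2, an adaptor that binds JAK2, rose from 8, 12 and 12 counts to 413, 225 and 290, a log2 fold change of 3.93. Its SEM::mock counts were too few for a test where 10 counts were required in each library. In that setting SHC1 was called higher instead (0.18). GAB1 and IRS1, docking proteins that link receptors to phosphoinositide signaling, rose by log2 fold changes of 1.81 and 1.55. STAM, SOS1 and CRKL, which connect the receptors to endosomal sorting and Ras signaling, fell by 0.62, 0.55 and 0.54.

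**Figure D5:**
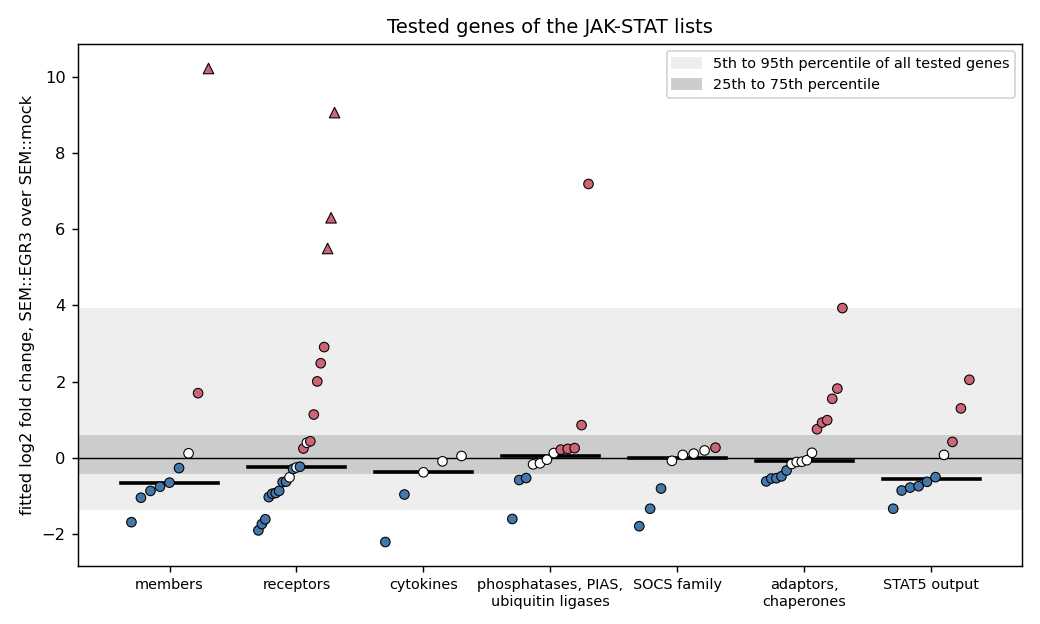
Fitted log2 fold change of SEM::EGR3 over SEM::mock (vertical axis) of each tested gene, by list. Red points were higher, blue points lower and white points not called at an adjusted p of 0.05, triangles mark genes with 3 counts or fewer in every SEM::mock library, whose size is not defined, black bars are medians, and the grey bands hold the middle of all tested genes. All lists but that of the cytokines have called points on both sides of 0.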

How the data were processed

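RNA was measured by MACE-Seq in 6 libraries, 3 of SEM::mock and 3 of SEM::EGR3, grouped by their titles. The column headings spell the transgene ERG3. The values used were the whole-number counts that the authors deposited for each gene and library. The submitters' processing notes name bcl2fastq, Bowtie2, HTSeq and GRCh38. Annotation, strand setting and treatment of multiple matches or molecular identifiers are not given in the sources used here. Values scaled to library totals or size factors, group means and the authors' own comparison (log2 fold changes, p-values and false discovery rates) were also deposited and not used, and 0 sample columns were left over.

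These counts were fitted with edgeR 4.0.16 under R 4.3.3 (filterByExpr, TMM, glmQLFit, glmQLFTest), with Benjamini-Hochberg adjustment over 15465 genes, and tested on simulated data first. CPM values used TMM factors. Positions came from GENCODE release 29. A line with at most 3 counts in each library was taken to be at the detection floor, and totals of 5286115 to 15106018 counts per library set the precision of low genes. Alternatives were DESeq2 1.42.0, no normalization or that by upper quartile, leaving low genes in, requiring 10 counts in each library, replicate number as a term, thinning to 5286115 counts, unadjusted p, and leaving out each library.

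Members and lists were chosen with earlier results of these data known. Of each list, up to 3 increases and 3 decreases were named, by fitted log2 fold change, among called genes without overlap and with 20 or more counts on average in the higher line. STAT2, STAT4, neighbours of the members, and the 3 genes most like EPOR and JAK3 were named by rule too. The shared-chain receptor groups and other genes named were chosen after their values were seen. Single values of a few genes within these rules are not shown.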

Additional observations from a re-analysis of the deposited data

How the results depend on the processing

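The 8 calls among the 9 genes kept direction and side of the threshold in every alternative that gave a value. The log2 fold changes ranged from -0.32 to -0.20 for JAK1, -1.06 to -0.67 for JAK2, -0.70 to -0.58 for STAT3, -1.75 to -1.62 for STAT5A, -1.12 to -0.97 for STAT5B, 1.58 to 1.77 for STAT6 and -0.81 to -0.60 for EPOR. JAK3 has no value where 10 counts were required in each library, which leaves 1 member and 4 receptors called higher and 1 cytokine called lower. In that setting 4 of the phosphatase group and 2 STAT5 output genes were higher. The adaptors called higher stayed at 6, with SHC1 in place of SH2B2. TYK2 passed the test without normalization factors (0.193) and its values ranged from 0.047 to 0.191 when single libraries were left out. Leaving out single libraries gave 0 to 1 lower among the other STAT genes, 0 to 1 higher cytokines, 3 to 5 higher phosphatases, PIAS proteins and ligases, and 0 to 1 higher SOCS genes. With DESeq2 3 of the phosphatase group and 0 SOCS genes were higher, after thinning 0 SOCS genes, and without normalization factors 2. Without a filter 2 cytokines were higher. The cause of these changes was not tested. Without normalization factors the median of all genes shifted to 0.108 and 59.4% of the called genes were higher, against 53.2%.

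The lines share replicate numbers, but deviations of same-numbered libraries correlated at -0.138, -0.0934 and -0.0431, so the numbers were not read as pairs. With the replicate block 10081 genes were called, against 10594, and no call among the 9 genes changed. Taken as pairs, the shares differed by -9.654 points for STAT5A and -4.064 points for JAK2. These equal the differences of the group means by construction, so they do not check the pairing. Depth limits what can be said of genes at or near 0 counts in SEM::mock, JAK3 among them.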
